A study of Homo sapiens with 8 samples.

Results

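Serum amyloid A and other genes of the acute-phase response, together with complement C3 and factor B, were followed in HuCCT1 cells, an established human cholangiocarcinoma line, in which BEX2 had been knocked down. The members are 10 of the 34809 gene names on the array: SAA1, SAA2, SAA4, LCN2, C3, CFB, HP, ORM1, SERPINA1 and SERPINA3. They were selected on their role and on their log2 difference between BEX2-knockdown and control arrays of these data, so that this difference is given for them as a description, with no test. Every non-control probe that the array design assigns to one of these symbols was used. There were 14 such probes, and all 14 were well above background on at least 4 arrays.

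All cells carried a retroviral short hairpin vector and none was left untransduced. The control cells held the vector shControl or shNontarget, and the BEX2-knockdown cells held shBEX2-1 or shBEX2-2, with 2 single-colour arrays for each of the 4 vectors. The target sequences printed in the study for its BEX2 hairpins are, apart from the end bases, reverse complements of each other. They thus name nearly the same site, so that the hairpins are not separate targets, and effects on RNAs other than BEX2 were not tested. The study describes its control hairpin as directed against luciferase, without saying which of the control labels that is. No source says whether replicate arrays stand for separate cultures, so that a p-value here measures the spread between these arrays, which may be technical. A single slide, scanned once, held all 8 arrays. Row 1 of it carried the control cells and row 2 the BEX2-knockdown cells, so position and group cannot be told apart. Intensities below are the processed intensities as deposited, not scaled between arrays, and log2 levels are relative to the 75th percentile of the array.

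The acute-phase response is the change in plasma protein synthesis that follows injury or infection. It is best known in hepatocytes, where interleukin 6 and interleukin 1 act through STAT3, C/EBP and NF-kB factors on the genes of secreted proteins, and several of these genes are also active in epithelia such as that of the bile ducts. Serum amyloid A proteins are small apolipoproteins of high-density lipoprotein, of which SAA1 and SAA2 are the strongly inducible forms and SAA4 the constitutive form. LCN2 binds bacterial siderophores, HP binds free haemoglobin, ORM1 is a carrier of drugs and lipids, and SERPINA1 and SERPINA3 inhibit neutrophil proteases. C3 is the component on which all complement pathways meet, and CFB forms with it the convertase of the alternative pathway.

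Probe sequences are shown because SAA1 and SAA2 are near-identical paralogs, so that what each probe reads decides what its value means. They come from the scanner files, 5′ to 3′ and sense to the mRNA, with capitals for the polyadenylation signal AATAAA where a probe holds one. Of probes that lie at the end of the mRNA or in an alternative last exon, 30 of the 60 bases are shown.

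SAA1 A_24_P335092: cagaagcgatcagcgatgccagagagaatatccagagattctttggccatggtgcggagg
SAA2 A_33_P3408918: taataggcatctAATAAAtgcttaagaggt
SAA2 A_33_P3408913: ctgggtgaccatctaaaataacatcatgtt
SAA4 A_23_P87238: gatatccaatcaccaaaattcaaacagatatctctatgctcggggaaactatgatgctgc
C3 A_23_P101407: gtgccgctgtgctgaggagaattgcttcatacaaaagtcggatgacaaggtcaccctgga
C3 A_33_P3347869: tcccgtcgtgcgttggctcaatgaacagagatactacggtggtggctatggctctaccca
SERPINA3 A_23_P162918: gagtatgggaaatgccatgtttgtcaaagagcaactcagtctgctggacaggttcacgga
SERPINA3 A_23_P2920: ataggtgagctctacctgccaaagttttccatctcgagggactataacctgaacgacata
SERPINA3 A_33_P3399788: cctcctgacagcAATAAAtaatttcgttgg

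No 2 of the 4 SAA probes shared a run of more than 8 bases on either strand. The SAA1 probe has no genome position in the array design, which lists it as unmapped. On hg19, the SAA2 probe A_33_P3408918 (NM_030754, transcript variant 1) lies on chromosome 11 at 18266791 to 18266850. The second SAA2 probe, A_33_P3408913 (NM_001127380, transcript variant 2), lies at 18260648 to 18260707, 6143 bases away and on the side of SAA4. The SAA4 probe lies a further 6664 bases on, at 18253984 to 18254043, and all 3 mapped SAA probes are on the minus strand. In the RefSeq annotation of GRCh38.p14 the order along the chromosome is SAA4, SAA2, SAA1, and a readthrough gene SAA2-SAA4 spans both SAA4 and SAA2. How much of each signal comes from a paralog or from readthrough RNA was not tested.

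BEX2 itself, read by a single probe, checks the labels. Its intensities were 71.0 and 55.7 with shControl, 115 and 48.8 with shNontarget, 11.9 and 11.1 with shBEX2-1, and 20.4 and 26.0 with shBEX2-2. Every BEX2-knockdown array lay below every control array, and the log2 difference was -1.63 (standard error 0.32, adjusted p = 0.0111 by limma). Both shBEX2-1 readings were not well above background. The 75th percentile of the intensity was between 667 and 838 on control arrays and between 441 and 631 on BEX2-knockdown arrays, and 59.8% to 64.6% of the non-control spots were well above background. Saturation was seen on none. The shNontarget arrays stood apart. Their log2 levels differed from each other by more than 1 in 34.9% of the 20464 genes tested, against 1.76% for shControl, 1.57% for shBEX2-1 and 0.562% for shBEX2-2. Member results below are therefore also given without a shNontarget array where that moves them, and those of related genes only in part. All 5 cholangiocyte markers examined were well above background on all 8 arrays, 5 of 8 hepatocyte markers, ALB, APOB, APOH, AFP and AHSG, on no array, and 2 of 6 leukocyte markers, CD14 and CSF1R, on all arrays. The summed intensity of the hepatocyte markers, not scaled between arrays, was 59.7 to 145 on control arrays and 44.5 to 63.0 on BEX2-knockdown arrays. Relative to the 75th percentile the markers did not move together. TF, AHSG and APOB had log2 differences of 1.03, 0.59 and 0.31, and the others ran from -1.20 for CYP2E1 to -0.01 for APOH.

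SAA1, SAA2 and SAA4 were higher on every BEX2-knockdown array than on any control array, with both hairpins, which share nearly the same target site. LCN2 also did not overlap, by a narrow margin. The other 6 genes overlapped between the arms by their brightest probe, and no gene was lower on all BEX2-knockdown arrays by that probe. The median log2 difference of the 10 genes was 0.17, against 0.03 for all genes tested. Over all genes tested, 22.1% did not overlap between the arms in either direction, a contrast in view when the members were picked. By limma at an adjusted p of 0.05, 6.89% of all genes passed as higher in BEX2-knockdown cells and 6.42% as lower. Of the members, 3 passed as higher (SAA1, SAA2 and SAA4) and 0 as lower, which is again a description.

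**Figure D1:**
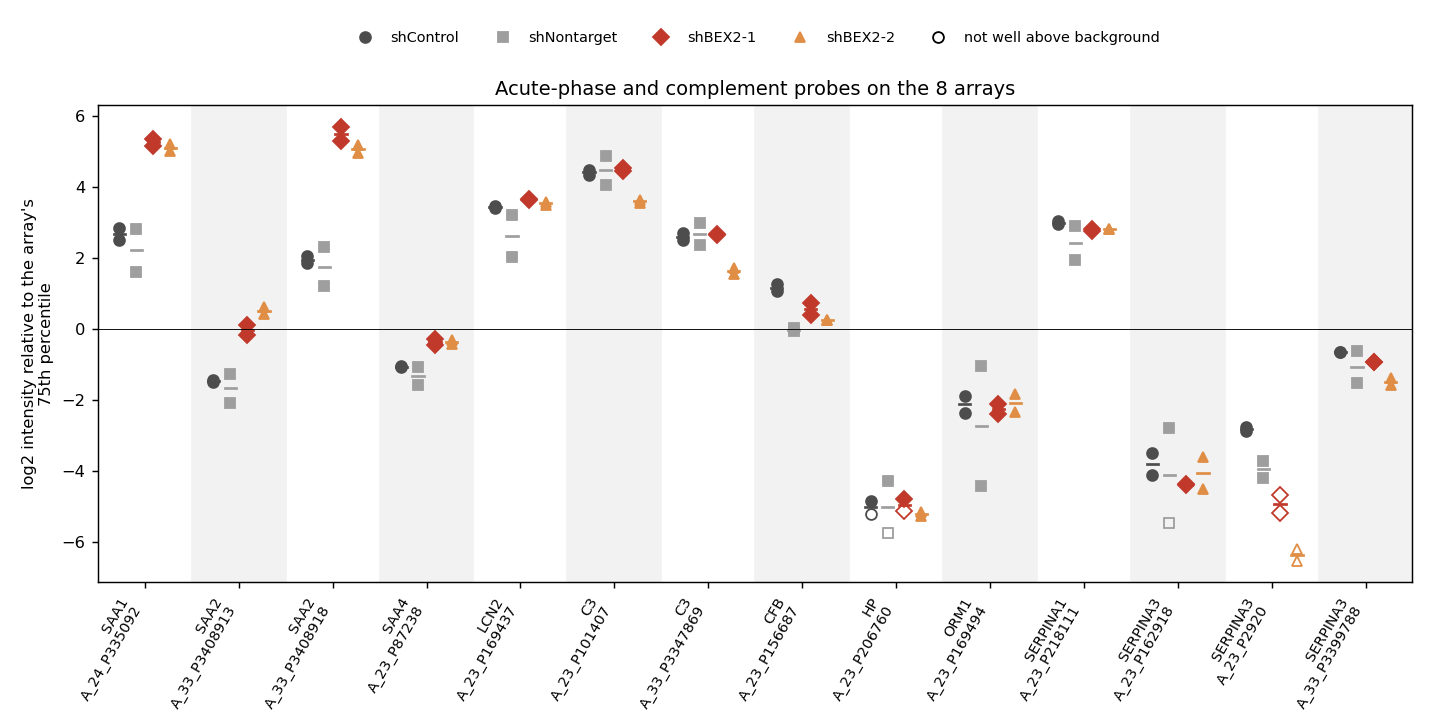
Log2 intensity relative to the array's 75th percentile (y axis) of the 14 member probes (x axis) on the 8 arrays, with 2 points and a mean line for each vector and open symbols for readings not well above background. Both SAA2 probes and the probes of SAA1 and SAA4 show all 4 BEX2-knockdown arrays above all 4 control arrays, with the wide grey pairs being the shNontarget arrays.

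SAA1 gave intensities of 5221 and 4773 with shControl and 5328 and 2014 with shNontarget. In shBEX2-1 cells it gave 18223 and 18343, and in shBEX2-2 cells 22833 and 20515. All 4 BEX2-knockdown readings were thus above all control readings, and shNontarget replicate 2 was the lowest of the 8 arrays. On the log2 scale the mean level was 2.44 ± 0.59 (SD, n = 4) in control and 5.19 ± 0.14 (SD, n = 4) in BEX2-knockdown cells, a difference of 2.75 or 6.71-fold. Against shControl alone the difference was 2.52, and against shNontarget alone 2.98. The level in shBEX2-1 cells exceeded that in shBEX2-2 cells by 0.15 (standard error 0.40, adjusted p = 1.00 by limma), which is within the spread between arrays. In such bulk samples, a change in the share of cells that express a gene and a change in the RNA per cell cannot be told apart.

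The SAA2 probe at the end of transcript variant 1 had the largest difference of the 14 probes. Its intensities were 3045 and 3034 with shControl, 3713 and 1535 with shNontarget, 22853 and 20143 with shBEX2-1, and 22455 and 19879 with shBEX2-2. The lowest BEX2-knockdown log2 level was 4.98 and the highest control level 2.31, with no overlap. The log2 difference was 3.43 or 10.8-fold, with 3.64 for shBEX2-1 and 3.22 for shBEX2-2 against all control arrays.

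The SAA2 probe for transcript variant 2, in the stretch between SAA2 and SAA4, had a smaller difference. It gave 259 and 311 with shControl, 177 and 276 with shNontarget, 478 and 458 with shBEX2-1, and 946 and 848 with shBEX2-2. The log2 difference was 1.82 or 3.52-fold, and the arms again did not overlap. Here the order of the sublines was the other way round from the variant 1 probe. The shBEX2-1 level lay 0.55 below that of shBEX2-2 (standard error 0.28, adjusted p = 0.828 by limma), while the variant 1 probe was 0.41 higher in shBEX2-1 cells (standard error 0.37, adjusted p = 1.00). Fitted on the 4 BEX2-knockdown arrays alone, the variant 2 difference between sublines passed (adjusted p = 0.0290 by limma) and the variant 1 difference did not (adjusted p = 0.0925). In that fit 13.1% of all genes passed.

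SAA4, whose product is the constitutive form, was read by 10 spots. Its intensities were 352 and 399 with shControl, 250 and 318 with shNontarget, 361 and 378 with shBEX2-1, and 499 and 469 with shBEX2-2. Unscaled, these readings overlap between shControl and shBEX2-1, and they separate once each array is set against its own 75th percentile. On that log2 scale the control levels ran from -1.59 to -1.05 and the BEX2-knockdown levels from -0.44 to -0.29. The difference was 0.83 or 1.77-fold, and it was 0.83 for either hairpin. Under quantile normalization and normexp background correction, the differences of SAA1, SAA2 and SAA4 all kept their sign. Over all alternatives they ranged from 2.46 to 2.98 for SAA1, from 3.21 to 3.58 and from 1.58 to 1.95 for the SAA2 probes, and from 0.69 to 0.96 for SAA4.

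LCN2, known as lipocalin 2 or NGAL, had intensities of 8042 and 8874 with shControl, 6899 and 2700 with shNontarget, 5589 and 6421 with shBEX2-1, and 7343 and 7185 with shBEX2-2. Relative to the 75th percentile, the lowest BEX2-knockdown log2 level was 3.51 and the highest control level 3.46. The log2 difference was 0.57 against all control arrays. Most of it came from shNontarget replicate 2, at 2.02, and the difference was 0.24 without that array and 0.16 against shControl alone.

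C3 was read by a pair of probes. By A_23_P101407 the intensities were 14774 and 18845 with shControl, 12590 and 19715 with shNontarget, 9603 and 11889 with shBEX2-1, and 7206 and 7907 with shBEX2-2. Relative to the 75th percentile, shBEX2-1 cells lay among the control arrays and shBEX2-2 cells below all of them. The log2 difference from control was 0.04 for shBEX2-1 and -0.85 for shBEX2-2, where control was 1.80-fold the shBEX2-2 level. The second C3 probe, A_33_P3347869 (hg19 chromosome 19 at 6686136 to 6686195), gave the same picture, with 0.03 for shBEX2-1 and -1.0 for shBEX2-2. Between the sublines the log2 difference was 0.89 (standard error 0.28, adjusted p = 0.468 by limma) by A_23_P101407 and 1.03 (standard error 0.23, adjusted p = 0.252) by A_33_P3347869, so that neither passed.

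This outcome depended on which arrays set the spread. In the model with all 8 arrays 0.0147% of genes, 3 in number, passed between the sublines, and the members were not among them. Fitted on the 4 BEX2-knockdown arrays alone, 13.1% of genes passed, with 2 of the 10 member genes, C3 and SERPINA3, and 5 of the 14 member probes. C3 then had an adjusted p of 0.00140 by A_23_P101407 and of 0.00118 by A_33_P3347869, by limma. Without shNontarget replicate 1 or without shNontarget replicate 2, 13.9% and 14.4% of genes passed, and each time the member genes were again 2.

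**Figure D2:**
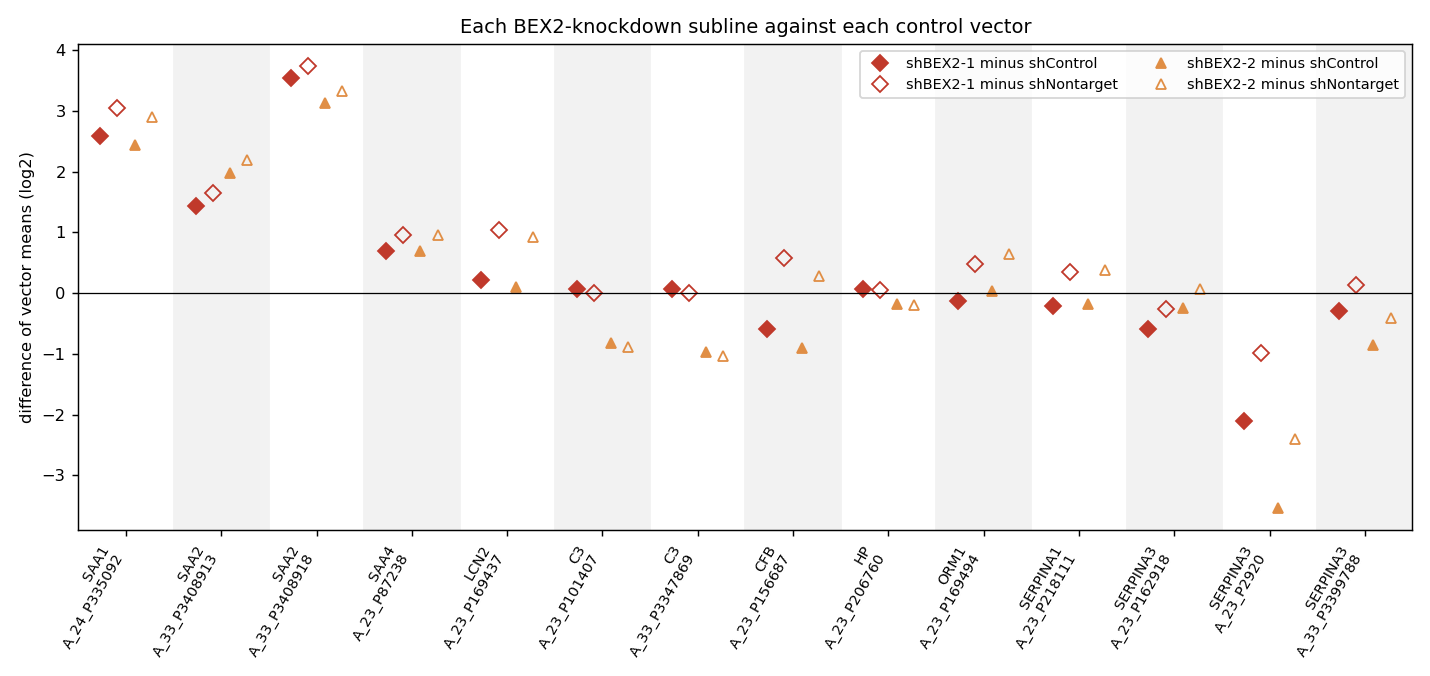
Difference of vector means on the log2 scale (y axis) for each of the 14 member probes (x axis), with each BEX2-knockdown subline set against shControl (filled) and against shNontarget (open). The SAA1, SAA2 and SAA4 points all lie above 0, C3 lies near 0 for shBEX2-1 and below it for shBEX2-2, and the CFB points change sign with the control vector.

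CFB, factor B of the alternative pathway, differed most between the control vectors. Its intensities were 1519 and 1997 with shControl, 714 and 675 with shNontarget, 578 and 855 with shBEX2-1, and 732 and 755 with shBEX2-2. Relative to the 75th percentile, the mean log2 level was 1.15 in shControl cells and -0.03 in shNontarget cells, and all BEX2-knockdown levels, from 0.24 to 0.73, fell between them. The log2 difference of BEX2-knockdown from control cells was -0.16 over all arrays, -0.75 against shControl alone and 0.43 against shNontarget alone, so that its direction was set by the control vector used.

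Between shNontarget and shControl the log2 difference of CFB was -1.18 (standard error 0.17, adjusted p = 0.379 by limma), with both shNontarget arrays below both shControl arrays. In that comparison 0% of genes passed over all 8 arrays, with 1863 of 25071 probes at an unadjusted p under 0.05. Without shNontarget replicate 1 the difference was -1.14 (adjusted p = 0.00108 by limma) and without shNontarget replicate 2 it was -1.22 (adjusted p = 0.000699), but 45.1% and 46% of all genes then passed too, as did 8 and 4 of the 10 member genes. Fitted on the 4 control arrays alone, CFB did not pass (adjusted p = 1.00).

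SERPINA3, which encodes alpha-1-antichymotrypsin, was read by 3 probes that gave unlike differences. By A_33_P3399788, at the end of the mRNA (hg19 chromosome 14 at 95090330 to 95090389), intensities were 469 and 537 with shControl, 488 and 231 with shNontarget, 230 and 271 with shBEX2-1, and 236 and 209 with shBEX2-2. The log2 difference was -0.35, with overlap through shNontarget replicate 2. By A_23_P2920, 1648 bases upstream on the genome, they were 106.7 and 114 with shControl, 56.7 and 36.6 with shNontarget, 17.3 and 14 with shBEX2-1, and 6.65 and 8.61 with shBEX2-2. No BEX2-knockdown reading of this probe was well above background. On the deposited intensities SERPINA3 by this probe was at least 3.58-fold lower than the mean of the control arrays. That bound would be smaller against shNontarget alone, as the mean log2 level was -2.83 with shControl and -3.96 with shNontarget. The 3.58-fold figure also depends on the processing. The log2 difference was -2.26 in the main setting and only -0.56 under normexp background correction.

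The bound sets the control mean against, on each BEX2-knockdown array, the lowest signal among probes well above background or the probe's own value if that is higher. By A_23_P162918, a further 7499 bases upstream at 95081183 to 95081242, intensities ran from 17.0 to 96.3 on control arrays and from 20.8 to 52.0 on BEX2-knockdown arrays. The log2 difference of this probe was -0.26, and it was 0.13 without shNontarget replicate 2. In the main setting the second probe thus gave a large difference that the other 2 did not show.

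**Figure D3:**
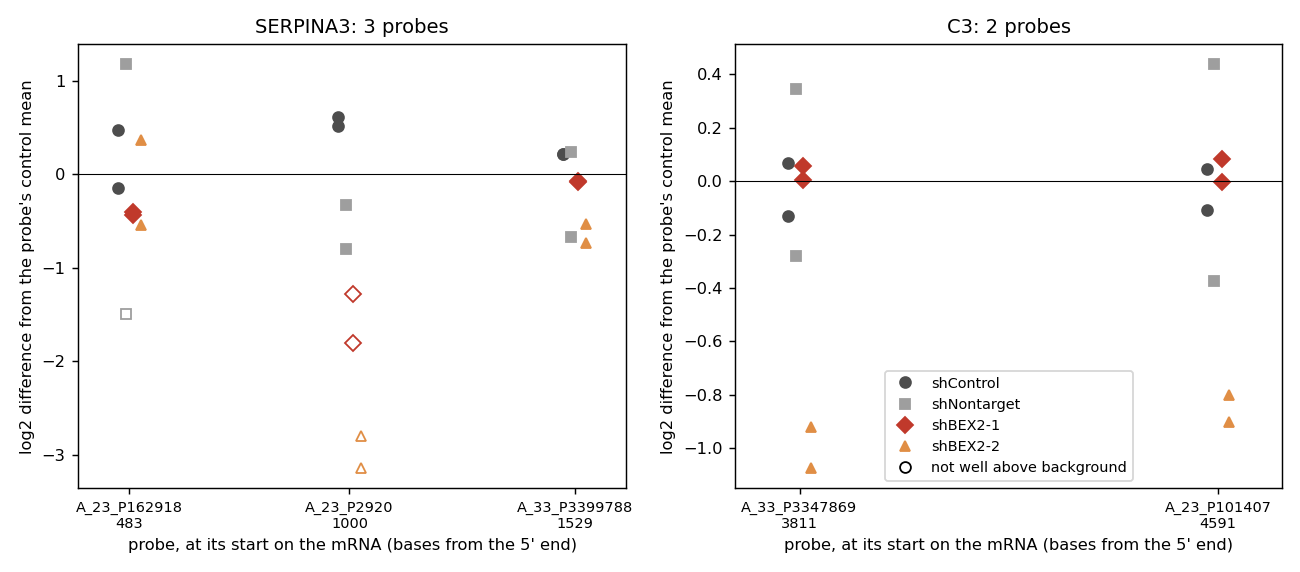
Log2 difference of each array from the same probe's control mean (y axis) for the 3 SERPINA3 probes and the 2 C3 probes, placed at their start on the mRNA in bases (x axis), with open symbols for readings not well above background. Only the middle SERPINA3 probe, at base 1000, has all BEX2-knockdown arrays below all control arrays, and both C3 probes have the shBEX2-2 arrays apart from the rest.

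SERPINA1, alpha-1-antitrypsin, lies on chromosome 14 as SERPINA3 does. Its intensities were 6021 and 6462 with shControl, 5826 and 2595 with shNontarget, 3089 and 3481 with shBEX2-1, and 4359 and 4444 with shBEX2-2. The 4 BEX2-knockdown log2 levels lay between 2.76 and 2.82. The log2 difference was 0.08 over all arrays and -0.17 without shNontarget replicate 2, whose level of 1.96 was far below the other control arrays.

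ORM1 and HP showed no separation of the arms. ORM1 gave 142 and 226 with shControl, 35.3 and 321 with shNontarget, 84.3 and 119 with shBEX2-1, and 123 and 176 with shBEX2-2. The shNontarget arrays were the lowest and the highest of the 8 relative to the 75th percentile, 3.36 apart on the log2 scale, so that the difference of 0.26 turned to -0.40 without shNontarget replicate 1. HP gave 13.8 to 34.2 on control arrays, 2 of which were well above background, and 12.6 to 19.5 on BEX2-knockdown arrays, of which 3 were. Its log2 difference was -0.06, and its probe is also assigned to the mRNA of HPR, the neighbouring haptoglobin-related gene.

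Promoter windows are shown for SAA4 and LCN2, whose arms did not overlap, and for CFB. They are the 250 bases before the start in GRCh38.p14, on the gene's own strand, with capitals for matches to the general NF-kB form (GGG, any 5 bases, CC), TTNNGNAA (of a C/EBP site), TTCNNNGAA (of a STAT site) and TATAAA, searched on both strands. The windows of SAA1, SAA2, C3 and HP were not analysed here.

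SAA4 chr11:18236803-18237052, minus strand: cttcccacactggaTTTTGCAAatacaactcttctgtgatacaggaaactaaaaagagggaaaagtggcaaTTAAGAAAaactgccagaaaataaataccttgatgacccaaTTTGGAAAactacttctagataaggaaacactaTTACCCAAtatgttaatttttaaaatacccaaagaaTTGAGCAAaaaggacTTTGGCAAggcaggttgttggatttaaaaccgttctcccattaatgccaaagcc
LCN2 chr9:128149203-128149452, plus strand: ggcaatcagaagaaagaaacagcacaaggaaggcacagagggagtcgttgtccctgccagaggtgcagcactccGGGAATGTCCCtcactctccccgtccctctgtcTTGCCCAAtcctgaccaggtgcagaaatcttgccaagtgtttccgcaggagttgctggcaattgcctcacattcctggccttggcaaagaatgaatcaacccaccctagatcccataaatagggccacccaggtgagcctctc
CFB chr6:31945845-31946094, plus strand: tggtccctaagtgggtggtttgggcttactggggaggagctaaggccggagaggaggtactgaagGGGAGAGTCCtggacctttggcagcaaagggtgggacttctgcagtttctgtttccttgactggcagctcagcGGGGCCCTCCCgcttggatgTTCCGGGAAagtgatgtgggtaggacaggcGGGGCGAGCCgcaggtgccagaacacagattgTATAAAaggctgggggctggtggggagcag

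SAA4 held 6 matches to TTNNGNAA and none of the others. LCN2 held 2 overlapping matches to the NF-kB form, 1 on each strand, and 1 match to TTNNGNAA. CFB held 4 matches to the NF-kB form, of which 2 overlap, with 1 match each to TTCNNNGAA and TATAAA. Among the 7 windows of 6 member genes, 4 held the NF-kB form, 5 TTNNGNAA, 1 TTCNNNGAA and 2 TATAAA. Of all 35116 windows, 54.4% held the NF-kB form, 33.2% TTNNGNAA, 6.57% TTCNNNGAA and 3763 windows TATAAA, so that the first pair of forms is common. A match is only a run of letters.

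The rest of the complement system was read through 24 other components and 17 regulators. Of the components, 11 were bright enough to test, and 1 rose and 0 fell, with a median log2 difference of 0.14 against 0.03 for all genes. CFD, factor D, which cleaves CFB, rose by 0.73 on the log2 scale (standard error 0.19, adjusted p = 0.0343 by limma). The 10 others ranged from -0.97 to 0.59. Of the regulators, 8 were tested, of which 1 rose and 1 fell, with a median of -0.15. C4BPB, the beta chain of C4b-binding protein, an inhibitor of the classical pathway, rose by 1.89 (standard error 0.25, adjusted p = 0.00249), from intensities of 595 to 1290 on control arrays to 1641 to 2482 on BEX2-knockdown arrays. CD59, which blocks the membrane attack complex, fell by 1.21 (standard error 0.16, adjusted p = 0.00275), from 2391 to 3031 down to 560 to 1145. CFD did not pass when any single shControl or BEX2-knockdown array was left out, or in a model of the 4 vectors.

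CFHR3, on the list of complement regulators, was singled out after its values were seen as the only related gene to differ between the sublines. Its intensities were 156 and 197 in shBEX2-1 cells and 44.5 and 50.2 in shBEX2-2 cells, against 140 to 201 on control arrays. The log2 level was 2.29 higher in shBEX2-1 than in shBEX2-2 cells (standard error 0.17, adjusted p = 0.0472 by limma). With the replicate number as a block the adjusted p by limma was 0.122. It was 0.0639 under normexp, 0.0530 with no filter on dim probes, 0.0513 with all 8 arrays well above background and 0.0554 with 1 probe a gene. Fitted on the 4 BEX2-knockdown arrays alone it was 0.000340, where 13.1% of all genes passed. Leaving out a shControl or a BEX2-knockdown array also ended the call, with adjusted p from 0.337 to 0.959.

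Among 16 receptors of the member proteins, 8 were tested, of which 2 passed as higher and 0 as lower, with a median log2 difference of 0.52. CR2, the receptor for C3 fragments on B cells, gave 8.87 to 11 on control arrays, none well above background, and 62.3 to 78.5 on BEX2-knockdown arrays. With BEX2 knocked down it was, by the mean over both sublines, at least 4.97-fold higher on the deposited intensities. The size depends on the processing, as the log2 difference of CR2 was 3.33 in the main setting and 1.23 to 3.49 over the alternatives. CR2 entered the genes tested only through its BEX2-knockdown readings, so that its place among those 2 is a description and no p is given. The median of 0.52 counts CR2 and is likewise a description. SCARB1, a lipoprotein receptor that also binds serum amyloid A, rose by 0.79 on the log2 scale (standard error 0.17, adjusted p = 0.0151). SCARB1 did not pass without shBEX2-2 replicate 1 (or, likewise, replicate 2) or with shNontarget alone as control.

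Of 23 other positive acute-phase proteins, 13 were tested, of which 2 rose and 1 fell, with a median log2 difference of -0.16. LRG1, leucine-rich alpha-2-glycoprotein, rose by 1.66 (standard error 0.34, adjusted p = 0.0132 by limma), from 16.9 to 60.2 on control arrays to 50.8 to 99.2 on BEX2-knockdown arrays. CD14, a co-receptor for lipopolysaccharide, rose by 0.54 (standard error 0.13, adjusted p = 0.0281). It is also one of the 6 leukocyte markers, whose summed intensity was 386 to 535 on control and 301 to 588 on BEX2-knockdown arrays, and the part of leukocyte RNA was not tested. The 10 not tested include the liver proteins CRP, APCS, the 3 fibrinogen chains FGA, FGB and FGG, HPX and LBP. CD14 did not pass when any single shControl or BEX2-knockdown array was left out. Of 11 negative acute-phase proteins, which are known to fall in the response, 4 were tested and 0 passed, with differences from 0.05 to 0.61.

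Of 42 genes of acute-phase signalling, 38 were tested, of which 2 rose and 5 fell, with a median log2 difference of 0.03, as for all genes. The ligands IL1A and IL1B rose, by 1.17 (standard error 0.30, adjusted p = 0.0321 by limma) and 1.31 (standard error 0.19, adjusted p = 0.00345). IL1B gave 772 to 1411 on control arrays and 1484 to 2293 on BEX2-knockdown arrays. IL1RAP, the accessory chain of the interleukin 1 receptor, fell by 1.15 (standard error 0.24, adjusted p = 0.0133) and the receptor-linked kinase IRAK2 by 0.72 (standard error 0.15, adjusted p = 0.0129). LIF, a ligand of the interleukin 6 family, fell by 1.04 (standard error 0.29, adjusted p = 0.0443).

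The transcription factors CEBPB and RELB fell as well, CEBPB by 0.74 (standard error 0.14, adjusted p = 0.00959 by limma) and RELB, named after its values were seen, by 0.71 (standard error 0.11, adjusted p = 0.00499). IL6 had a log2 difference of 0.82 (adjusted p = 0.113) and its receptor IL6R, well above background on only 4 of the 8 arrays, 1.36 (adjusted p = 0.120). For IL6 the BEX2-knockdown levels, from 0.94 to 1.56, overlapped control only through shNontarget replicate 2, at 1.30. The other control arrays ran from -0.12 to 0.38. STAT3, at 0.30 (adjusted p = 0.177), and its inhibitor and target SOCS3, at -0.47 (adjusted p = 0.224), did not pass, nor did CEBPD at -0.09 (adjusted p = 0.778). NFKBIA, an inhibitor of NF-kB, did not pass at 0.40 (adjusted p = 0.0613). NFKBIZ, a nuclear protein of the same family that acts as a co-activator of NF-kB targets such as LCN2, did not pass at -0.26 (adjusted p = 0.733). The negative sign of NFKBIZ came from shNontarget replicate 2, at a log2 level of 1.20. The other control arrays ran from -0.86 to -0.54 and the BEX2-knockdown arrays from -0.77 to -0.13. IL1A did not pass without either shControl array, either shBEX2-1 array or shBEX2-2 replicate 1, and IRAK2 did not without shBEX2-2 replicate 1. LIF did not pass without any single shControl or BEX2-knockdown array. It also did not under quantile normalization, with no filter on dim probes or in a model of the 4 vectors.

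Of 8 other serpin genes of the cluster on chromosome 14 that holds SERPINA1 and SERPINA3, 2 were tested, 5 were too dim to test and SERPINA2 was not found on the array by name. SERPINA5, the protein C inhibitor, fell by 1.42 on the log2 scale (standard error 0.38, adjusted p = 0.0395 by limma), from 26.0 to 104 on control arrays to 13.6 to 19.3 on BEX2-knockdown arrays. With the replicate number as a block, with normexp background correction, with no filter on dim probes, or without any single shControl or BEX2-knockdown array it did not pass. SERPINA6, the corticosteroid-binding globulin gene and the only other one tested, was named after its values were seen and had a difference of 0.61 (adjusted p = 0.0954). With shNontarget alone as control, C4BPB, LRG1 and IL1B were still past the threshold among the related genes named here other than CR2, and 1.03% of all genes were higher and 0.738% lower.

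**Figure D4:**
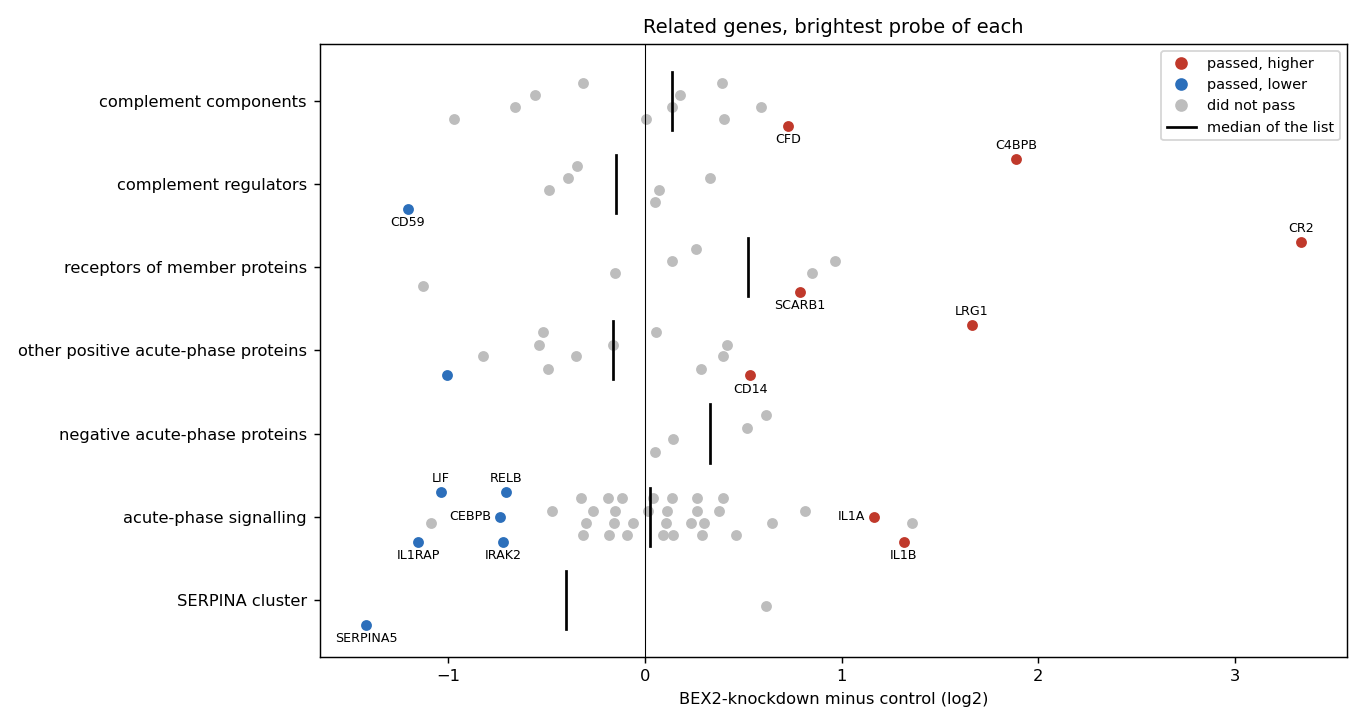
BEX2-knockdown minus control on the log2 scale (x axis) of each related gene that was tested, by list (y axis), with the brightest probe of each gene. Red and blue points passed an adjusted p of 0.05 by limma as higher or lower, grey points did not, and the black bars are list medians, which run from -0.40 to 0.52. CR2, a red point that also enters the median of 0.52, was tested only through its BEX2-knockdown readings and is a description.

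The genes whose levels over the 8 arrays ran most like the SAA2 probe A_33_P3408918 were ARNTL2 (Pearson r = 0.995), CD83 (0.994), TRAFD1 (0.993), PDGFRL (0.993) and CCDC75 (0.993). Of 20454 other genes, 757 had an r over 0.9. The arrays fall into a low and a high group for this probe, so that a gene clearly higher on the BEX2-knockdown arrays can reach a high r through that alone.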

How the data were processed

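RNA of HuCCT1 cells was read on 8 single-colour Agilent arrays, 2 for each vector. The authors extracted the intensities with Agilent Feature Extraction 10.7.3.1, and the deposited processed intensity is already background-subtracted. The array design gives positions on hg19. Here, log2 of the intensity minus the array's 75th percentile was taken, outlier spots were left out and spots of a probe averaged. A probe was tested if at least a share of 0.5 of its spots was well above background on at least 4 of 8 arrays. limma 3.58.1 in R 4.3.3 (lmFit, eBayes with trend) was run over 25071 probes with Benjamini-Hochberg adjustment at 0.05, and the brightest tested probe stood for each of 20464 genes. Arms were compared 4 against 4, and sublines and control vectors in a model of the 4 vectors. The code was tested on simulated data. The number of arrays limits the precision.

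The members and gene lists were chosen with earlier results of these data known. Named were the members, BEX2, list genes past the threshold (up to 6 a list by size), 10 preset signalling genes, and the 5 genes most correlated with the member probe of largest difference. The submitted names give replicates 1 and 2 a day each, so that the numbers were taken as pairs. Deviations of same-numbered arrays correlated between vectors at 0.245, 0.117, 0.109, -0.0717, 0.202 and 0.228. Alternatives were quantile normalization, normexp (offset 50), the deposited series table, other filters, 1 probe a gene, the mean of a gene's probes, a replicate block, other vector models, shControl or shNontarget alone as control, leaving out single arrays, and the methods' t-test. The study's rank product was not used, as it resamples ranks over genes. Promoters were taken from RefSeq (GRCh38.p14). Some genes that the counts include are not reported here by name.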

Additional observations from a re-analysis of the deposited data

Results flagged for a closer look

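Of 76 groups of 4 arrays examined, 8 held an array whose gap to the nearest of the others, as a share of the group's range, was above Dixon's critical value at the 95% level, which chance passes in about 1 in 20 groups. In control cells, shNontarget replicate 2 was low for SERPINA1 (share 0.881, log2 level 1.96 against 2.91 to 3.04), for SERPINA3 by A_33_P3399788 (0.972, -1.53 against -0.64 to -0.62) and for IRAK2 (0.943, 1.04 against 1.40 to 1.42), and it was high for NFKBIZ (0.845, 1.20 against -0.86 to -0.54). shNontarget replicate 1 was low for SAA4 (0.966, -1.59 against -1.07 to -1.05). In BEX2-knockdown cells, shBEX2-1 replicate 1 was low for LRG1 (0.9, -3.12 against -2.72 to -2.67), and shBEX2-2 replicate 2 was high for SERPINA3 by A_23_P162918 (0.85, -3.60 against -4.51 to -4.38). CFHR3 differed between the sublines, with a log2 level 2.29 higher in shBEX2-1 than in shBEX2-2 cells.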

How the results depend on the processing

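Between the arms 3423 probes passed. The count was 8435 with shControl alone as control, 443 with shNontarget alone, 6772 by the methods' t-test without adjustment and 2766 after Benjamini-Hochberg, and 1587 (without shBEX2-2 replicate 1) to 5877 (without shNontarget replicate 1) with 1 array left out. Between the sublines 4 passed, with 19 under quantile normalization, 0 under normexp and 0 with no filter (1794 at an unadjusted p under 0.05 in limma as reported), 2 with all 8 arrays well above background, 2 with 1 probe a gene, 3164 on the 4 arrays alone, and 0 to 3476 (without shNontarget replicate 2) with 1 array left out. Between the control vectors 0 passed, and 0 to 11369 with 1 array left out, the counts above 0 being 11097 and 11369 without shNontarget replicate 1 or 2. With the replicate number as a block, 3169 passed between the arms, 0 between the sublines and 0 between the control vectors. Of the genes named, the block ended the calls of SERPINA5 and, between sublines, CFHR3, and no other.

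Some member differences turned sign. Between the arms these were CFB (0.43 with shNontarget alone; -0.37 to 0.070 with 1 array left out), SERPINA3 by A_23_P162918 (0.14 under normexp; -0.76 to 0.13), ORM1 (-0.041 with shControl alone; -0.40 to 0.72), HP (0.26 under normexp; -0.31 to 0.18) and SERPINA1 (-0.20 with shControl alone; -0.17 to 0.19). For shNontarget minus shControl they were C3 by A_23_P101407 (-0.030 under quantile normalization; -0.34 to 0.47) and by A_33_P3347869 (-0.25 to 0.38), SERPINA3 by A_23_P162918 (0.073 under normexp; -1.65 to 1.02) and by A_33_P3399788 (-0.89 to 0.025), ORM1 (-2.29 to 1.07), HP (-0.73 to 0.74), SAA1 (-1.08 to 0.16), and SAA2 by A_33_P3408913 (-0.61 to 0.19) and by A_33_P3408918 (-0.76 to 0.35). For shBEX2-1 minus shBEX2-2 they were SERPINA3 by A_23_P162918 (0.14 under normexp; -0.79 to 0.12), ORM1 (-0.41 to 0.074) and SAA4 (-0.074 to 0.078). The cause was not tested. Signals near background, as for HP and SERPINA3 by A_23_P162918, limit what can be read from their differences.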
